A study of Mus musculus with 8 samples.

Results

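The genes described here are 9 genes of goblet cells and other secretory mucosal epithelia: Agr2, Pigr, Wfdc2, Spdef, Fcgbp, Gcnt3, Tff1, Tff3 and Clu. They were chosen by symbol and not by their values, although earlier results of these data were known. Each has 1 row among the 23420 rows with a gene name in the deposited table. The table compares RNA from the corneal button, the transparent central disc of the cornea, with RNA from the limbal rim, the narrow band where the cornea meets the conjunctiva and sclera and where the epithelial stem cells of the cornea reside. Both tissues came from wild type C57BL/6J mice 8 weeks of age. A surgeon cut them from 16 eyes, they were pooled by tissue and sequenced as stranded total RNA, and no treatment or allele separated the groups. The labels list 4 samples per tissue, but the table has no value for any single one of them. Each tissue therefore entered as 1 library, so there is no replicate check, no p-value is given, and every interval covers counting error alone. Since each library is a whole tissue, fewer cells of a type and less RNA per cell cannot be told apart.

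Secretory epithelial cells fold, glycosylate and export large amounts of protein. In goblet cells, AGR2, a resident of the endoplasmic reticulum, is needed for mucin folding, SPDEF is a transcription factor of goblet cell maturation, GCNT3 builds branched sugar chains on mucins, and trefoil factors and FCGBP are released with the mucus. PIGR carries immunoglobulin A across epithelia, WFDC2 and clusterin (Clu) are secreted proteins of many moist epithelia, and in the eye the conjunctiva is the usual home of goblet cells.

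Of the 9 genes, 6 had more than 3 reads in at least 1 library and so received a ratio. Agr2, Pigr, Wfdc2 and Clu were higher in the limbus, Fcgbp was higher in the cornea, and Spdef, at a low number of reads, could not be placed on either side. Gcnt3, Tff1 and Tff3 had 1 read or none. Of the 6 genes with a ratio, 4 lay on the limbal side beyond counting error, against 34.0% of the 15572 genes with a ratio. On the corneal side lay 1 of the 6, against 36.5%. Among the same 6, 3 were at least 2-fold higher in the limbus, against 20.8% of the 15572 genes, and 0 were at least 2-fold higher in the cornea, against 8.84%. On the log2 scale, limbus over cornea, the median ratio of the 6 genes was 0.96 and that of all genes was 0.01. Summed over the 9 genes, the corneal level was 9740 normalized reads and the limbal level 17830, a 1.83-fold difference, and Clu alone gave 65.0% and 65.9% of the reads behind these sums. A normalized read is a read scaled for the depth of its library, and wherever a pair of read numbers is given, the corneal one stands first.

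**Figure D1:**
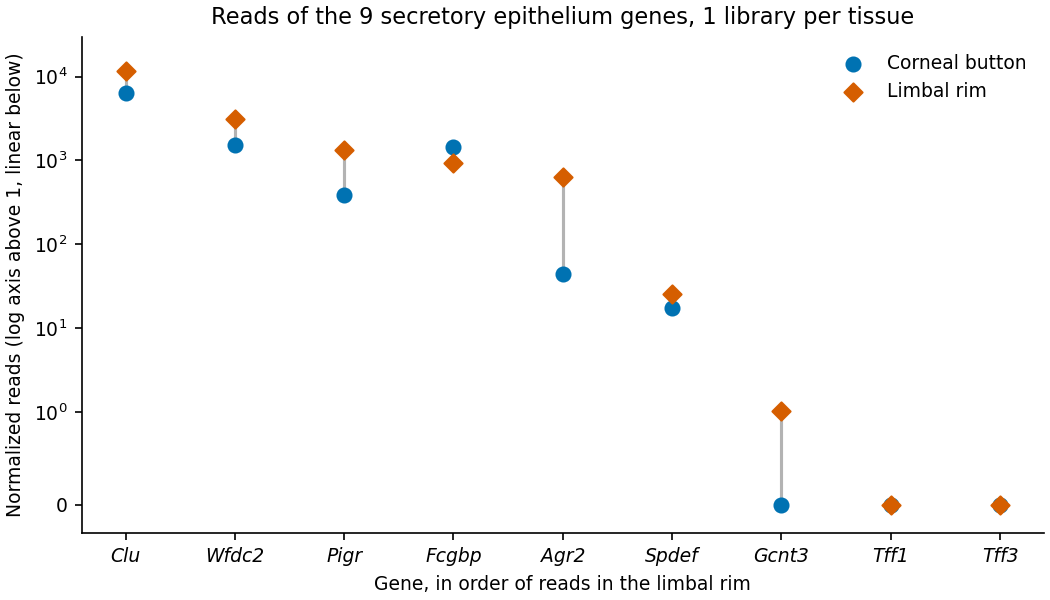
Normalized reads of the 9 genes (vertical axis, logarithmic above 1 and linear below) in the corneal button (circles) and the limbal rim (diamonds), 1 library each, with a line joining the values of a gene. The limbal point lies above the corneal one for Clu, Wfdc2, Pigr, Agr2, Spdef and Gcnt3, the corneal point lies above for Fcgbp, and Tff1 and Tff3 lie at 0 in both.

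Agr2 differed most. It encodes a protein disulfide isomerase of secretory cells and lies on chromosome 12 at 35992907 to 36004087 on the plus strand of GRCm38. Agr2 had 46 corneal and 618 limbal reads, which is 44.5 and 639 normalized reads. The limbal level was thus 14.4-fold the corneal one (95% interval, 10.6 to 19.8), a log2 ratio of 3.84. Of the 15572 genes with a ratio, 2.48% lay farther toward the limbus. The related gene Agr3 sits beside it at 35925620 to 35949736 and had 1 read in each library, so the difference at this locus was seen in Agr2 and could not be measured in Agr3, which was picked once its values were known.

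Agr2 belongs to the machinery that folds secreted protein, and the other genes of that machinery did not share its ratio. Of 25 protein disulfide isomerases and chaperones of the endoplasmic reticulum, 23 had a ratio. Counting intervals placed 6 on the limbal side, 10 on the corneal side and 7 on neither, and the median log2 ratio was -0.05. Scaled to total reads, the split became 14 limbal and 6 corneal with a median of 0.16, and scaled to the upper quartile it became 10 and 7 with a median of 0.09, so the list's direction depends on the scaling. The member with the most reads, the calcium-binding chaperone Calr, had 14587 corneal and 16287 limbal reads (log2 ratio 0.25). Widest toward the limbus were Pdia5, with 36 and 73 reads (log2 ratio 1.12), and Txndc5, with 2036 and 2967 (0.64), and widest toward the cornea were Dnajb9, with 820 and 336 (-1.19), and the membrane-bound Tmx1, with 1999 and 746 (-1.33). The highest ratio of the list, 1.12, compares with 3.84 for Agr2.

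Pigr encodes the receptor that binds polymeric immunoglobulins at the basal side of an epithelium and releases them at the surface. The gene lies on chromosome 1 at 130826684 to 130852249, plus strand. Pigr had 395 corneal and 1299 limbal reads, which is 382 and 1343 normalized reads. The limbal level was 3.51-fold the corneal one (3.14 to 3.94), and 13.0% of genes lay farther toward the limbus. The neighbouring gene Fcamr, an Fc receptor for immunoglobulins A and M at 130800902 to 130814740, lay on the same side with 51 and 131 reads, its log2 ratio being 1.46 (0.98 to 1.95). Fcamr was picked once its values were known.

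Reads of the immunoglobulins that Pigr carries could be followed only in part. In the list of 15 immunoglobulin transport and plasma cell genes, 5 (Igha, Ighm, Igkc, Iglc1 and Iglc2) matched no row and 6 of the other 10 had a ratio. Of these 6, 4 were higher in the limbus, 1 was higher in the cornea and 1 was neither, with a median log2 ratio of 1.41. Fc receptor genes led the limbal side: Fcgrt, the neonatal Fc receptor, had 161 and 945 reads (log2 ratio 2.65), and Fcer1g, a signaling chain of myeloid Fc receptors, had 21 and 182 (3.21). Sdc1, which marks plasma cells but is also made by epithelia, was the exception, with 39634 and 26236 reads (-0.50). The plasma cell genes Mzb1, Tnfrsf17 and Jchain, picked once their values were known, had at most 2 reads in either library. From the same list, and picked in the same way, Cd79b had 22 and 36 reads (log2 ratio 0.81, interval 0.002 to 1.64). Derl3, picked likewise, had 5 and 12 (1.36, interval -0.25 to 3.22). The limbal level of Pigr therefore stood beside almost no reads of Mzb1, Tnfrsf17 and Jchain. Without rows for the immunoglobulin genes, the presence of plasma cells was not tested.

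Wfdc2 encodes a small secreted protein with whey acidic protein domains, a fold found in protease inhibitors and antimicrobial peptides of mucosal fluids. It lies on chromosome 2 at 164562413 to 164568510, plus strand. Wfdc2 had 1583 corneal and 3034 limbal reads, which is 1531 and 3136 normalized reads. The limbal level was 2.05-fold the corneal one (1.93 to 2.18), so the interval spans the 2-fold line, and 20.5% of genes lay farther toward the limbus.

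Other whey acidic protein genes were low in the cornea where Wfdc2 was not. Of 19 listed, 18 had a row, 9 of these had no read and 7 had a ratio, of which 5 lay on the limbal side and 2 on neither. Their median log2 ratio was 3.05, and their corneal sum of 118 normalized reads compared with a limbal sum of 1147, a 9.72-fold difference. Wfdc18 had 2 corneal and 594 limbal reads, a ratio of 317 with a counting interval of 87.5 to 2627. Wfdc1 had 3 and 55, a ratio of 19.6 (6.36 to 97.9). Slpi, an inhibitor of neutrophil elastase picked once its values were known, had 39 and 302 (log2 ratio 3.05). Per length, in RPKM (reads per kilobase of exon, scaled to a common library size), Wfdc2 stood at 53.2 in the cornea, where Slpi stood at 1.27. In the limbus, Wfdc2 stood at 126 RPKM, Wfdc18 at 23.0 and Slpi at 12.1. Wfdc2 was thus the most abundant of the listed family in both libraries, and had a smaller ratio than Wfdc18, Wfdc1 or Slpi. Wfdc5, picked once its values were known, had a smaller ratio than Wfdc2, with 73 and 91 reads (log2 ratio 0.41, interval -0.05 to 0.88).

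Clu encodes clusterin, a secreted chaperone found in tears and on wet epithelia that binds lipids and misfolded protein. It lies on chromosome 14 at 65968483 to 65981547, plus strand. Clu had 6544 corneal and 11359 limbal reads, which is 6330 and 11742 normalized reads. The limbal level was 1.85-fold the corneal one (1.80 to 1.91), the narrowest interval of the 6 genes with a ratio, and 21.9% of genes lay farther toward the limbus. Scaled to total reads or to the upper quartile, the log2 ratio of 0.89 became 1.10 or 1.03, past 2-fold.

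Receptors and lipoprotein partners of clusterin lay on both sides. Of 10 listed genes, 9 had a ratio, 6 were higher in the limbus, 2 were higher in the cornea and 1 was neither, with a median log2 ratio of 1.52. Apoe, the apolipoprotein with the most reads of the list, had 3451 and 21765 (log2 ratio 2.75), and Trem2, a lipid receptor of macrophages, had 3 and 30, a ratio of 10.7 with a counting interval of 3.32 to 54.7. Lrp8, a receptor for apolipoprotein E and clusterin, with 108 and 62 (-0.70), was among the corneal ones.

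**Figure D2:**
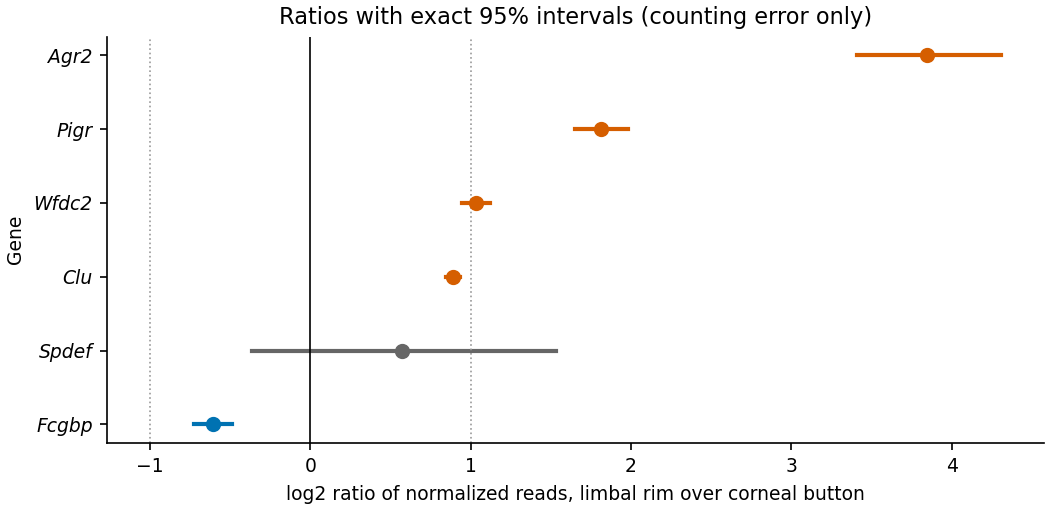
Log2 ratio of normalized reads, limbal rim over corneal button (horizontal axis), of the 6 genes with a ratio, with exact 95% intervals as bars; dotted lines mark 2-fold. The intervals of Agr2, Pigr, Wfdc2 and Clu lie to the right of 0, that of Fcgbp lies to the left from -0.73 to -0.49, and that of Spdef crosses 0.

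Fcgbp was the exception on the corneal side. It encodes a large mucus protein named for binding the Fc part of immunoglobulin G, and lies on chromosome 7 at 28071236 to 28120862, plus strand. Fcgbp had 1483 corneal and 912 limbal reads, which is 1435 and 943 normalized reads. The corneal level was 1.52-fold the limbal one, a log2 ratio, limbus over cornea, of -0.61 (-0.73 to -0.49), and 80.3% of genes lay farther toward the limbus. Scaled to total reads, the ratio was -0.40, on the same side. Of the 75-base windows of Fcgbp transcripts, 2.99% are shared with the gene 9530053A07Rik, which had 0 corneal and 2 limbal reads.

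**Figure D3:**
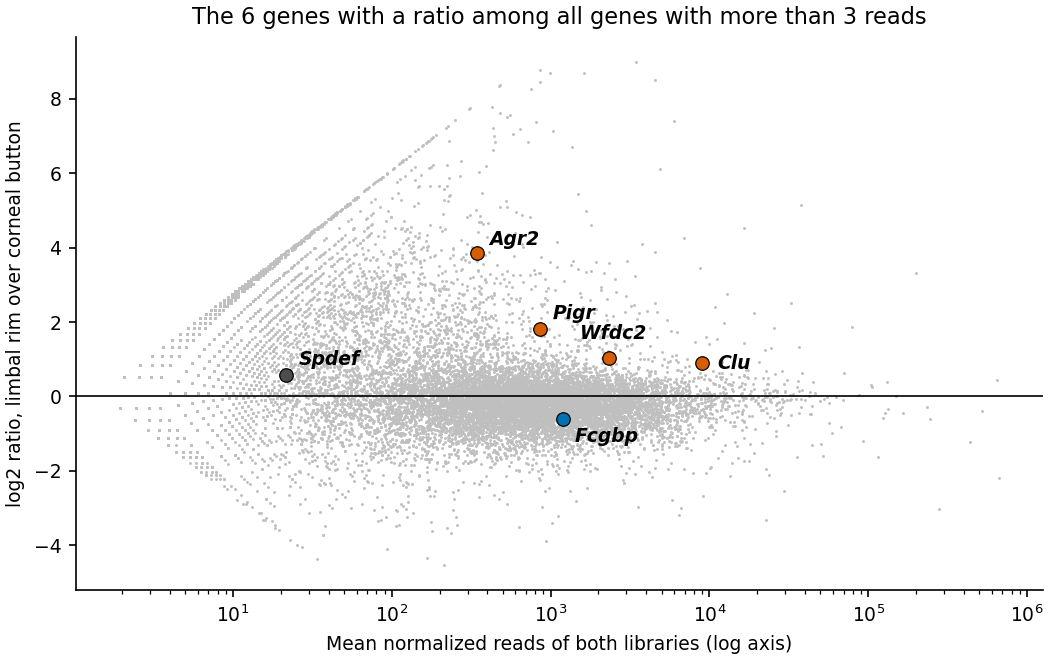
Log2 ratio, limbal rim over corneal button (vertical axis), against mean normalized reads of both libraries (horizontal logarithmic axis) for the 15572 genes with more than 3 reads in a library (grey), with the 6 genes marked. Agr2 stands at 3.84, Fcgbp at -0.61 lies below the line at 0, and Spdef lies among genes of few reads, where the spread is wide.

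The sequence before the first annotated base is shown for Agr2 and Pigr, the genes with the widest limbal differences, and for Fcgbp, the corneal one, since these moved apart. RefSeq entries (GRCm38.p6) matched 5 of the 9 genes by symbol: Agr2, Pigr, Wfdc2, Fcgbp and Spdef. The windows printed are on the plus strand, read 5′ to 3′ toward the start, and span chr12:35992675-35992906 for Agr2, chr1:130826434-130826683 for Pigr and chr7:28070986-28071235 for Fcgbp. Capitals mark a match to a searched motif.
Agr2: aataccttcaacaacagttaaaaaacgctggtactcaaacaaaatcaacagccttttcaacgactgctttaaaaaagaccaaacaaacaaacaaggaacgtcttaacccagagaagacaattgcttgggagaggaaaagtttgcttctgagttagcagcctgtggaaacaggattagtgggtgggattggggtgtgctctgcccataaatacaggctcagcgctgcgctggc
Pigr: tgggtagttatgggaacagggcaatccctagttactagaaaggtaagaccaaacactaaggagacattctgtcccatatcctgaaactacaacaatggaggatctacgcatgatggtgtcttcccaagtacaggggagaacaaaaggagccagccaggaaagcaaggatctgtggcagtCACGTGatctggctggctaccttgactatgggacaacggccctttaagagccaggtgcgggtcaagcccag
Fcgbp: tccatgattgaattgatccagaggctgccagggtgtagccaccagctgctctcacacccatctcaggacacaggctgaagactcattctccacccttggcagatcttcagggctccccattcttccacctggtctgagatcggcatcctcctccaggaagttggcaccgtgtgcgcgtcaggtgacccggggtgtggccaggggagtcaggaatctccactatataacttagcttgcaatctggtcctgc

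Motifs were searched as exact letters on both strands: the TATA box TATAAA, the forkhead motif TGTTTAC, the core CCGGAT bound by Spdef in vitro and the E-box CACGTG, no one of which contains another. Among 32851 RefSeq promoters, the 250 bases before the start hold these in 12.4%, 3.17%, 4.94% and 6.02%. The Pigr window holds 1 match, the E-box, and those of Agr2, Fcgbp and Spdef hold none. The Wfdc2 window was not searched, since it begins past a start of that gene in the GENCODE annotation. A match describes letters in the window and not binding.

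Spdef, the ETS-domain transcription factor of goblet cells, was near the lower end of what these libraries can compare. It lies on chromosome 17 at 27714352 to 27728955, minus strand. Spdef had 18 corneal and 25 limbal reads, which is 17.4 and 25.8 normalized reads. The log2 ratio was 0.57, with an interval from -0.36 to 1.53 that spans both no difference and one past 2-fold toward the limbus. At this depth no difference in Spdef could be detected.

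Other ETS factors listed were more abundant. The list of 10 includes Spdef and is not confined to factors of epithelia, and all 10 had a ratio. By their intervals, 6 lay on the limbal side, 3 on the corneal side and, of the 10, only Spdef on neither, with a median log2 ratio of 0.60. Per length, Spdef was the lowest of the 10 in both libraries, at 0.299 RPKM (cornea) and 0.512 RPKM (limbus). Elf3, a factor of differentiated epithelia, stood at 347 and 563 RPKM, with 20108 and 26422 reads (log2 ratio 0.49). Ets1, active in lymphoid and vascular cells, had 108 and 321 reads (1.67), and Erg, an endothelial factor, had 418 and 790 (1.01). Etv4, with 134 and 66 reads (-0.93), and Etv5, with 356 and 188 (-0.83), both targets of fibroblast growth factor signaling, were higher in the cornea.

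Transcription factors that act with Spdef in goblet cells lay on both sides. Of 13 listed, 7 had a ratio, 4 were higher in the limbus, 1 was higher in the cornea and 2 were neither, with a median log2 ratio of 0.23. Creb3l1, a membrane-bound factor of secretory cells, had 52 and 410 reads (log2 ratio 3.07, interval 2.66 to 3.52), and Sox9 had 319 and 554 (0.89). Klf4, needed for conjunctival goblet cells but abundant in corneal epithelium, had 26458 and 10248 (-1.27). Foxa2 and Atoh1, picked once their values were known, had no read in either library. Others of the list, picked in the same way, did have reads. Xbp1 had 3306 and 3353 (0.12), Klf5 had 2560 and 3282 (0.45), and Foxa1 had 41 and 45 (0.23, interval -0.41 to 0.88).

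Gcnt3, Tff1 and Tff3 were at or below 1 read. Gcnt3, a branching enzyme of mucin sugar chains on chromosome 9 at 70031496 to 70038088 (minus strand), had 0 corneal reads and 1 limbal read. The trefoil factor genes Tff3, at 31125306 to 31129646, and Tff1, at 31161395 to 31165277, lie close together on the minus strand of chromosome 17, and neither had a read in either library. With 0 reads counted, up to 3 reads remain possible. No fold is given for these genes. Tff1 is overlapped by the antisense gene Gm15318, whose transcripts hold 11.6% of its 75-base windows.

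Gel-forming mucins, the cargo of goblet cells, were at the same low level. Muc5ac, the main secreted mucin of the conjunctiva, had 1 read in each library, Muc5b had 0 in both, and Muc2 had 3 in each. Tff2, which lies between Tff3 and Tff1, had 1 corneal read and 0 limbal reads. All 4 were picked for naming once their values were known. In the list of 25 goblet and mucous cell genes, 24 had a row, 6 of these had no read and 12 had a ratio. Of the 12, 6 were higher in the limbus, 1 was higher in the cornea and 5 were neither, with a median log2 ratio of 0.83, and the summed level was 14524 normalized reads (cornea) and 13154 (limbus). Most of that sum came from St6galnac1, a sialyltransferase, with 11710 and 8659 reads (log2 ratio -0.34). Clca1, a goblet cell protease, had 6 and 25 reads (2.15), and Bpifb1, a secreted protein of airway and mucous glands, had 0 and 36, at least 4.05-fold higher in the limbus. Muc5ac, Muc5b, Muc2 and the 3 trefoil factor genes, which mark goblet and mucous cells, were thus at or under 3 reads. These genes do not bear out the name secretory epithelium here, but they are only part of the genes listed. Others of the list had more reads and lay on the limbal side. Galnt12 had 293 and 610, Ano1 had 45 and 119, Sytl2 had 50 and 99, and Bcas1 had 2863 and 3109, all picked once their values were known. Agr2, Pigr, Wfdc2, Clu and Fcgbp had reads in both libraries, which do not by themselves identify a cell type.

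Enzymes that start and extend mucin sugar chains lay on both sides. Of 21 listed, 20 had a ratio, of which 7 were higher in the limbus, 10 were higher in the cornea and 3 were neither, with a median log2 ratio of -0.08, which became 0.12 scaled to total reads and 0.06 scaled to the upper quartile. Galnt4, which adds the first sugar, had the most reads, 6857 and 2756 (log2 ratio -1.22), and C1galt1, which makes the core that Gcnt3 branches, had 181 and 62 (-1.45). Gcnt2, the relative of Gcnt3 that branches blood group I chains, had 5 and 106 reads (4.50, interval 3.23 to 6.15), and Galnt6 had 0 and 28, at least 3.08-fold higher in the limbus. Branching enzymes closer to Gcnt3 in function were rare: Gcnt1 had 1 and 16 reads and Gcnt4 had 6 and 7, both picked once their values were known.

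Levels of different genes can be compared only per length of exon, here in RPKM. In the cornea the order was Clu at 72.9, Wfdc2 at 53.2, Fcgbp at 5.41, Pigr at 3.76, Agr2 at 1.36 and Spdef at 0.299. In the limbus it was Clu at 156, Wfdc2 at 126, Agr2 at 22.6, Pigr at 15.2, Fcgbp at 4.10 and Spdef at 0.512. Clu and Wfdc2 led in both tissues, while Fcgbp, Pigr and Agr2 stood in opposite order. Neighbours in each order had Poisson intervals that did not overlap, down to Spdef. Below it, Gcnt3 was at 0 (cornea) and 0.011 (limbus) RPKM, and the limit for a count of 0 was 0.0267 for Gcnt3 in the cornea, 0.164 and 0.201 for Tff1 and 0.233 and 0.287 for Tff3, so the order of these 3 cannot be told.

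**Figure D4:**
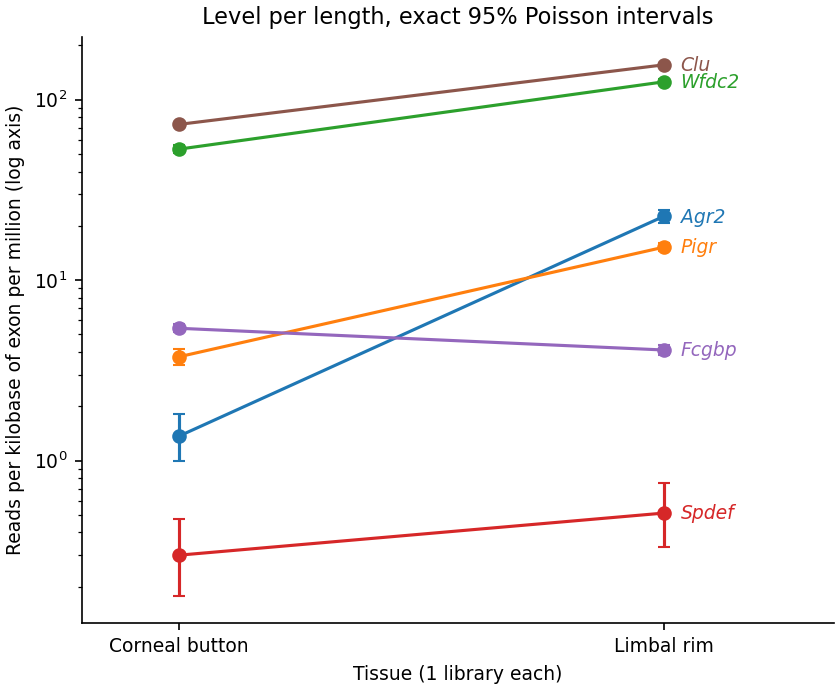
Reads per kilobase of exon, scaled to library size (RPKM, logarithmic vertical axis), of the 6 genes with a ratio in the corneal button and the limbal rim, 1 library each, with exact 95% Poisson intervals. The lines of Agr2, Pigr and Fcgbp cross: Fcgbp was the highest of these 3 in the cornea at 5.41, and Agr2 in the limbus at 22.6.

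On named genes, the corneal library held 26104317 reads and the limbal library 21182025, of which the 9 genes took 0.0386% and 0.0814%. Tissue labels were checked with marker lists. Of 10 corneal epithelium markers with a ratio among 11 listed, 8 lay on the corneal side and 2 on the limbal side, with a median log2 ratio of -0.96 and a summed level 1.77-fold higher in the cornea. Krt12, the keratin of differentiated corneal epithelium, had 1137735 and 233324 reads (log2 ratio -2.19) and Ly6g6c had 7353 and 2090 (-1.72). The 2 limbal ones, Krt15 with 37738 and 353826 (3.32) and Krt14 with 9952 and 53574 (2.52), are keratins of basal and limbal epithelium.

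Markers of conjunctival epithelium and of ciliary body, iris and lens lay mostly on the limbal side, against 34.0% of the 15572 genes with a ratio. Marker lists of glands, keratocytes and corneal endothelium, described at the end, were more mixed. Of 13 conjunctival epithelium markers with a ratio among 15 listed, 12 were limbal and 1 was corneal, with a median log2 ratio of 1.86. Their summed level was 275608 normalized reads (cornea) and 457711 (limbus), Sprr1b, named because it was the marker at 0 in both libraries, was picked once its values were known, and Muc16 matched no row. Krt4, a keratin of mucosal epithelia, had 2138 and 71498 reads (log2 ratio 5.16), and Krt8, a keratin of simple epithelia, had 39 and 1131 (4.95). The exception was the water channel Aqp5, also a gene of corneal epithelium, with 132834 and 54569 (-1.19). Of 14 ciliary body, iris and lens markers, all 14 were higher in the limbus, with a median log2 ratio of 3.03, no marker at 0 in both libraries, and a summed level of 4051 and 18166 normalized reads, a 4.48-fold difference. Among them were Mlana of pigment cells, with 7 and 132 reads (4.33), the lens channel Mip, with 3 and 35, a ratio of 12.5 (3.93 to 63.4), and the small heat shock protein Cryab, with 2518 and 4703. The part of these tissues in the limbal levels of Agr2, Pigr, Wfdc2 and Clu was not tested. Fcgbp lay on the corneal side, as did 8 of the 10 corneal epithelium markers with a ratio and 36.5% of all genes with a ratio. The part of corneal epithelium in the level of Fcgbp was not tested either.

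**Figure D5:**
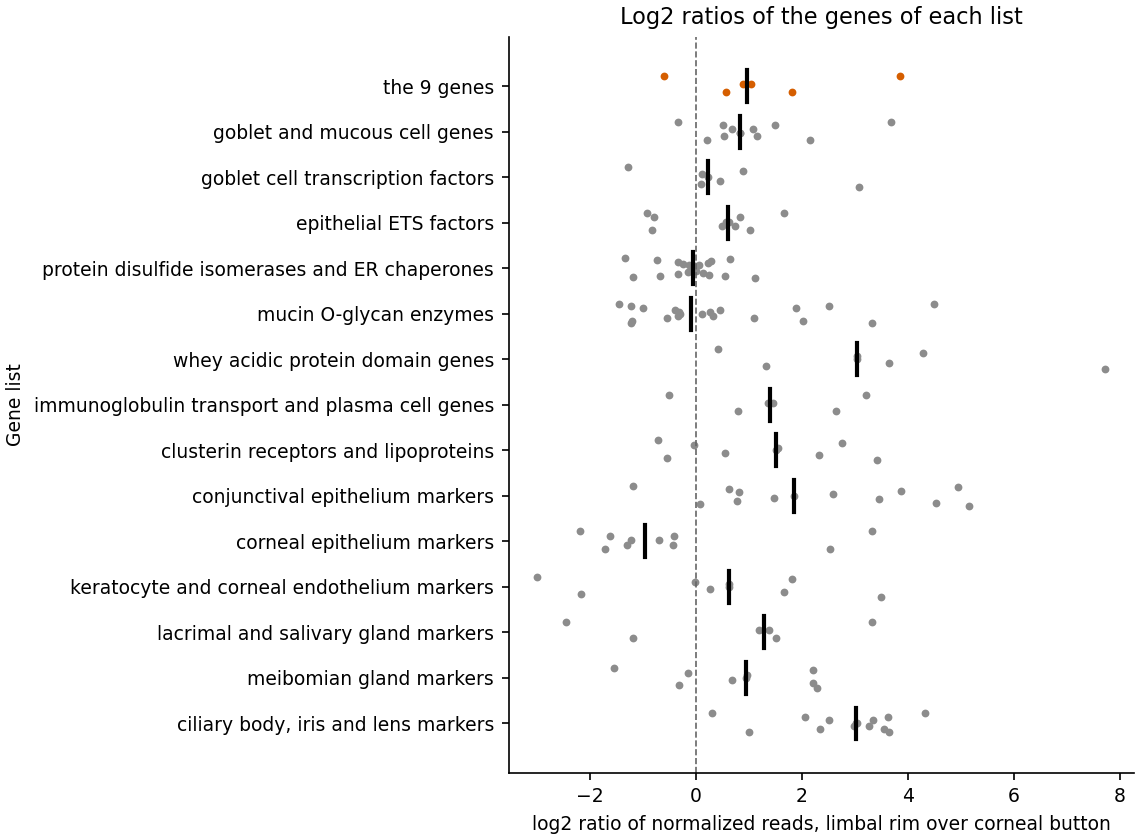
Log2 ratio of normalized reads, limbal rim over corneal button (horizontal axis), of each gene with a ratio in the 9 genes (orange) and 14 other lists (grey), with short bars at list medians and a dashed line at the median of all genes, 0.01. The median of the 6 genes with a ratio among the 9, 0.96, lies near those of the meibomian gland markers at 0.95 and the goblet and mucous cell genes at 0.83. The medians of the corneal epithelium markers at -0.96 and the conjunctival epithelium markers at 1.86 lie farther from it on either side.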

How the data were processed

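Using CLC Genomics Workbench, the authors mapped trimmed reads to the mouse genome (GRCm38, mm10) and normalized them by the trimmed mean of M-values, whereas how the deposited table was made is not given in the sources used here. The authors deposited for each gene a mean signal over both tissues, made of reads scaled by a factor per library. The authors deposited a log2 fold change and its standard error, a score with no fixed range here, together with p-values, which were not used. A remark in the table gives the direction. Of 40904 rows, 17484 name no gene and stayed out.

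Each mean can be written with whole reads, 1 library per tissue, in which 109 corneal reads equal 102 limbal ones. Where several pairs of reads gave a mean, the pair was taken whose shrunken fold change and standard error, under a negative binomial model with a normal prior of variance 2.064, met those in the table. These columns served only to choose the pair. Agr2, Pigr, Wfdc2, Fcgbp and Clu had several pairs, and for each the next best pair missed by at least 93.1 times as much as the chosen one. Spdef and Gcnt3 had 1 pair each. For all genes, 6143 means allowed 1 pair and 11299 several, and 92 were settled by the dispersion of similar genes. Read numbers are therefore derived values. The step was tested on simulated data before use. Those data were made with the same model, factors and prior, so the test cannot show whether the deposited values follow that model.

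Intervals are exact Clopper-Pearson intervals at 95%, converted to ratios with those factors. For calls, list medians and lower bounds, 3 reads stood in for any smaller number. Levels per length used the union of exons in the GENCODE annotation of GRCm38, and promoters came from RefSeq (GRCm38.p6). The members and the 14 other lists were chosen with earlier results of these data known. Named genes are the 9 members and, per list, the gene with the most reads and the 2 with the largest ratio in each direction among those beyond counting error with 20 or more reads. Genes named outside this rule are marked as such. For 1 gene that the rule names, no values are given here. Alternatives were scaling by total reads, by the trimmed mean of M-values (30% and 5% trimmed) or by the upper quartile, filters on a mean of 10 and 50, a pseudocount of 1, and the next best pair of reads. Python 3.11.15 with numpy 2.4.6, scipy 1.17.1 and matplotlib 3.10.9 was used.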

Additional observations from a re-analysis of the deposited data

How the results depend on the processing

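The median log2 ratio of the 6 genes moved from 0.96 to 1.17 when scaled to total reads and to 1.10 when scaled to the upper quartile, because these scalings shift every log2 ratio by 0.21 and 0.14 toward the limbus, and 61.6% and 58.4% of all genes then lay on the limbal side in place of 50.6%. Under the other alternatives run it lay between 0.96 and 1.03. The number of genes at least 2-fold higher in the limbus was 4 when scaled to total reads or the upper quartile, Clu being added, and 3 otherwise. The other counts of the 9 genes (4 and 1 beyond counting error, 0 at least 2-fold higher in the cornea) stayed at their values under every scaling and filter run. Among 29 recomputed ratios of single genes, 17 moved by less than their interval, 12 moved by more and 0 changed side. The next best pairs of reads would give log2 ratios of 1.83 for Agr2, 4.66 for Pigr, 6.39 for Wfdc2, -3.41 for Fcgbp and 7.36 for Clu, so the sizes rest on the choice of pair. The choice of pair follows the sign of the deposited fold change. The sides therefore rest on that sign, and the next best pairs do not test them. No paired analysis was possible because the table has no column for a numbered sample. Depth limits Spdef, Gcnt3, Tff1 and Tff3. Counting intervals do not cover variation between animals or dissections.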

Other observations

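Markers of glands that also secrete onto the ocular surface were mostly rare. Of 14 lacrimal and salivary gland markers, 6 had no read and 6 had a ratio, of which 3 were higher in the limbus, 2 were higher in the cornea and 1 was neither, with a median log2 ratio of 1.29. Ltf, the iron-binding lactoferrin of tears, had 959 corneal and 2338 limbal reads (log2 ratio 1.38), Lpo, a peroxidase of saliva and tears, had 0 and 28, at least 3.08-fold higher in the limbus, and Car6, a secreted carbonic anhydrase, had 29 and 5 (-2.44). The list shares Aqp5 with the conjunctival markers, and that gene gave most of its summed level of 129493 normalized reads (cornea) and 58960 (limbus).

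Of 12 meibomian gland markers, 2 had no read and 9 had a ratio, of which 4 were higher in the limbus, 1 was higher in the cornea and 4 were neither, with a median log2 ratio of 0.95. The summed level was 2755 normalized reads (cornea) and 1682 (limbus), mostly from Scd1, a fatty acid desaturase of many cells, with 2551 and 817 reads (-1.55). Mgst1 had 136 and 618 (2.28), and Elovl4, which lengthens very long fatty acids, had 26 and 47 (0.95).

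Of 9 stromal and endothelial markers with a row among 10 listed for keratocytes and corneal endothelium, 5 were higher in the limbus, 2 were higher in the cornea and 2 were neither, with a median log2 ratio of 0.64. The summed level was 59551 normalized reads (cornea) and 66206 (limbus). Kera, the keratan sulfate proteoglycan of keratocytes, had 12119 and 1423 reads (-2.99) and Aldh1a1 had 7369 and 1548 (-2.16). Dcn, a proteoglycan of many connective tissues, had 30813 and 44833 (0.64), Ptgds, a prostaglandin D synthase, had 186 and 1950 (3.49), and Col8a2, a collagen of the endothelial basement membrane, had 1319 and 4323 (1.81).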
